A study of Mus musculus with 6 samples.

Results

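Genes of homologous recombination and of the Fanconi anemia pathway were examined in immortalized cardiosphere-derived cells (iCDCs) of the mouse, in 3 libraries of control cells and 3 of cells given 5-azacytidine. The 42 genes were taken by symbol from 54532 genes in the deposited table, and all 42 were found and passed the filter on low counts that left 14246 genes for testing. They cover the BRCA complex and its mediators, the cofactors of strand exchange (Rad51b, Rad51c, Rad51d, Xrcc2 and Xrcc3), the RAD54 motors, the Fanconi core complex, the FANCD2-FANCI pair with its downstream factors, end resection, the processing of joined DNA molecules, the ATR checkpoint, and PARP1 with DNA polymerase theta. The cells are a C57BL/6 line from explants of the ventricular epicardium, made to express human telomerase reverse transcriptase (hTERT) from a CMV promoter by a lentivirus and selected with puromycin, so both groups carry hTERT and the selection marker. Control cells were iCDCs at passage 30. Induced cells were iCDCs of passage 30 that received 10 µM 5-azacytidine, a cytidine analog that blocks DNA methylation, for 3 days, and that were then kept for 4 weeks in IMDM with 2% fetal bovine serum by the labels. The methods give a shorter later culture in another medium, and describe routine growth in an explant medium with more serum, without stating the medium or the days in culture of the control cells that were sequenced. The effects of drug, serum and time therefore cannot be told apart. The labels name separate samples but not separate cultures, so that the p-values measure the spread between these samples, which may be technical.

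Homologous recombination repairs DNA double-strand breaks from an intact sister copy and acts mainly in the S and G2 phases of the cell cycle, when that copy exists. Broken ends are trimmed to single strands, a protein filament forms on them with the help of BRCA2 and cofactors and invades the intact copy, and the joined molecules that follow are dissolved or cut. The Fanconi pathway deals with crosslinks between the DNA strands: a core ubiquitin ligase modifies FANCD2 and FANCI, which bring in nucleases and recombination factors. Cardiosphere-derived cells are stromal cells that grow out of heart tissue and divide in culture.

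Total counts per library were 19041133 to 19823369, and a gene without a read could be present at up to 0.150 to 0.159 CPM (read counts relative to library size) when 3 reads are taken as the limit, for counting error only. Pearson correlations of log2 CPM across genes were 0.994 to 0.996 within a group and 0.940 to 0.942 between groups, and genes are not independent replicates. Of the leukocyte markers, 5 of 6 had no read in either group, and their summed level was 0.200 to 0.408 CPM in control and 0.210 to 0.472 CPM in induced libraries. The 5 endothelial markers summed to 0.255 to 0.557 and 0.579 to 0.943 CPM. The 8 cardiomyocyte markers summed to 13.0 to 16.1 and 59.1 to 62.7 CPM, most of it Tnnt2, with 3 of them at 0 reads in control and 1 in induced libraries. Only Tnnt2 and Tnni3 had enough reads to be tested. Tnnt2 rose (log2 fold change 2.15, edgeR adjusted p = 4.90e-14), and Tnni3 did not pass (0.41, edgeR adjusted p = 0.144). Of the untested cardiomyocyte markers, Ryr2 had the most reads over the induced libraries, 29, followed by Actn2 with 8, all of the Actn2 reads in 1 library. The epicardial markers summed to 373 to 387 and 1234 to 1380 CPM, most of it Upk3b. Tbx18 was lower in induced cells (log2 fold change -0.33, edgeR adjusted p = 0.000429), and the other 4 were called higher: Msln (3.01), Upk3b (1.89), Tcf21 (1.49) and Wt1 (1.34). The mesenchymal markers summed to 11237 to 11919 and 11668 to 12297 CPM. Of these, 3 were called higher, Col3a1 (log2 fold change 0.70), Thy1 (0.54) and Eng (0.12), and 3 lower, Pdgfra (-0.73), Ly6a (-0.57) and Col1a1 (-0.36). The labelled cells thus carried mesenchymal and epicardial RNA, with the leukocyte and endothelial markers under 1 CPM in sum.

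The comparison of induced with control cells asked how the RNA of these repair genes stood after the induction. In edgeR (quasi-likelihood test, p-values adjusted by Benjamini-Hochberg over all tested genes), 35 of the 42 genes were lower in induced cells and 2 were higher at an adjusted p of 0.05, while 5 did not pass. Over all tested genes, 64.8% passed in either direction, 32.2% as lower and 32.6% as higher, against 83.3% of the repair genes as lower. At least 2-fold lower were 19 repair genes (45.2%), against 7.83% of all tested genes, and at least 2-fold higher was no repair gene, against 9.29%. The median log2 fold change was -0.78 for the repair genes and -0.01 for all tested genes, and single genes ran from -2.10 (Eme1) to 0.54 (Xrcc3). The counts within roles given below are to be read beside these shares of all tested genes. For 15 genes the whole 95% interval of the log2 fold change lay under -1, and the share of all tested genes with such an interval was not counted. The induced libraries all lay under the control libraries for 35 repair genes (34.5% of all tested genes) and all above them for 2, which is 37 genes without overlap, against 68.6% of all tested genes in either direction. In bulk RNA, fewer cells that express a gene and less RNA per cell cannot be told apart.

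**Figure D1:**
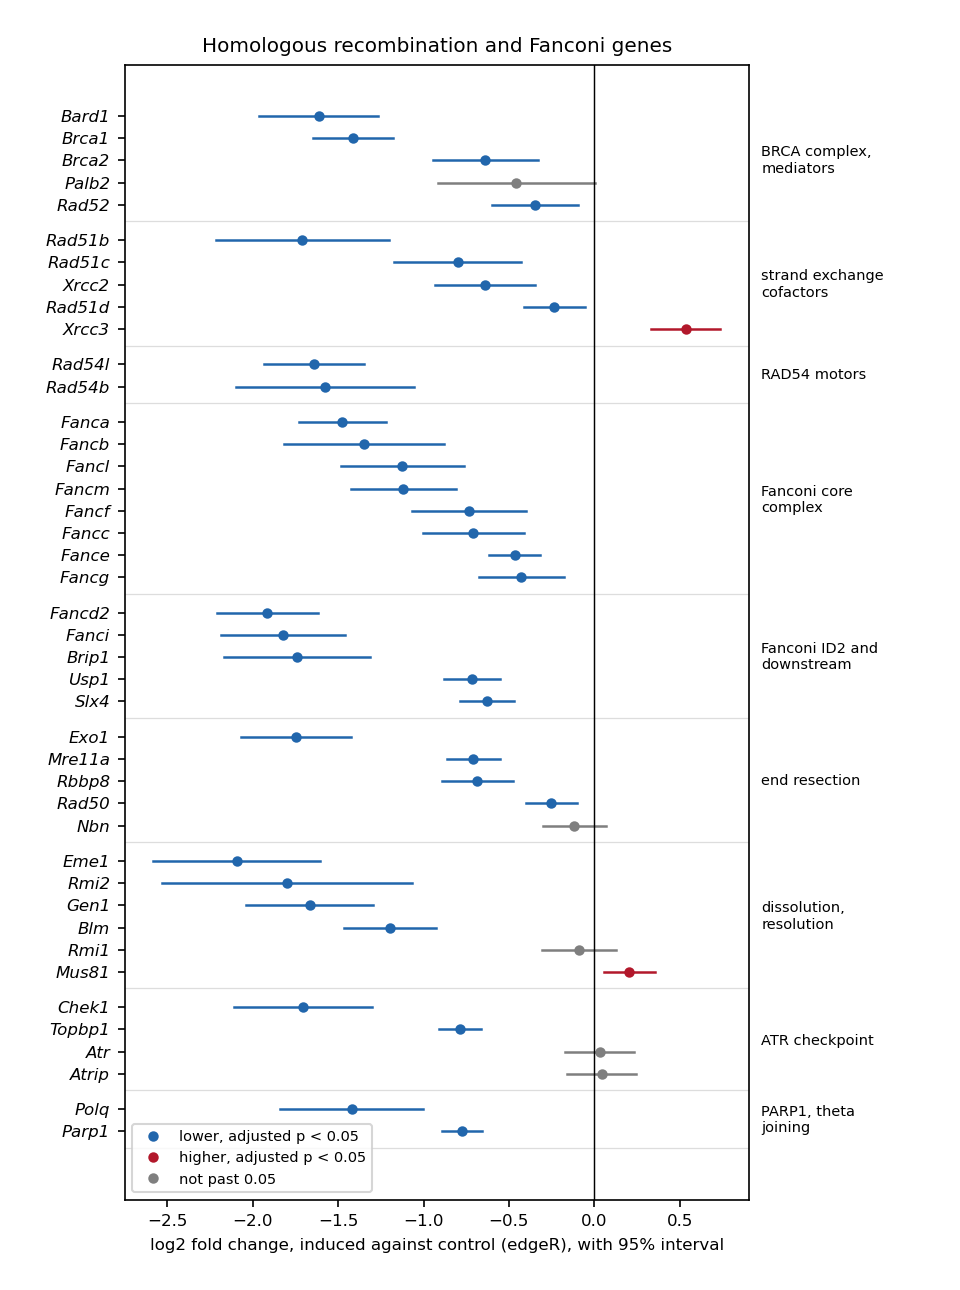
The x axis gives the log2 fold change of induced against control iCDCs by edgeR for each of the 42 repair genes, grouped by role on the y axis, with bars for the 95% interval and colours for lower, higher and not past an adjusted p of 0.05. Most points lie left of 0, with Eme1 at -2.10 at one end and Xrcc3 at 0.54 at the other.

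The 22 proliferation genes moved with the repair genes. All 22 were lower in induced cells (against 32.2% of all tested genes), 18 of them by at least 2-fold (against 7.83%), with a median log2 fold change of -1.56. Their summed level was 1640 to 1696 CPM in control and 603 to 611 CPM in induced libraries. Mki67, the gene of the Ki-67 antigen of dividing cells, was at 135 ± 2.40 CPM (SD, n = 3) in control and 33.7 ± 2.49 CPM in induced cells. Cdc20, an activator of the anaphase-promoting complex, had a log2 fold change of -2.39, and Top2a, the topoisomerase of mitotic chromosomes, had -1.82. Pcna, the sliding clamp of DNA polymerases, fell less, from 113 ± 4.19 to 76.6 ± 1.76 CPM. The repair genes together summed to 736 to 753 CPM in control and 471 to 485 CPM in induced libraries. The part of the lower proliferation RNA in the fall of the repair genes was not tested.

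Of the BRCA complex and its mediators, 4 of 5 genes fell and Palb2 did not pass, with a median log2 fold change of -0.64. Brca1 and Bard1 encode the 2 chains of a ubiquitin ligase that gathers at breaks. Brca1 (chr11:101488764-101551955, minus strand, GRCm38) was at 16.1, 18.7 and 17.1 CPM in the control libraries and at 6.06, 6.10 and 7.29 CPM in the induced libraries. Induced libraries thus held 37.5% of the control level, with a log2 fold change of -1.41 ± 0.11 (SE, edgeR adjusted p = 2.39e-09). Bard1 was at 7.09, 8.05 and 6.86 CPM in control and at 2.44, 2.68 and 2.04 CPM in induced libraries, without overlap, and its log2 fold change was -1.62 ± 0.17 (edgeR adjusted p = 9.85e-08). Brca2, a mediator of filament formation on single-stranded DNA, fell less, from 8.70 ± 0.568 to 5.58 ± 1.19 CPM (log2 fold change -0.64). Rad52, which anneals single strands, had the smallest called fall of this role (log2 fold change -0.35, edgeR adjusted p = 0.0159), and its induced library 2 reached control library 3 at 10.7 CPM. That call was lost when control library 2, induced library 1 or induced library 3 was left out (adjusted p 0.0804, 0.0777 and 0.0536). Palb2, which bridges BRCA1 and BRCA2, was at 2.69, 3.31 and 2.91 CPM in control and at 1.81, 2.00 and 2.67 CPM in induced libraries. These did not overlap, but the difference did not pass (log2 fold change -0.46, 95% interval -0.92 to 0.00, edgeR adjusted p = 0.0769), except without induced library 3 (adjusted p 0.0350).

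The 5 cofactors of strand exchange split by direction: 4 fell and Xrcc3 rose. RAD51B, RAD51C, RAD51D and XRCC2 form a complex, and RAD51C also pairs with XRCC3 in another complex. Rad51b (chr12:79297282-79814690, plus strand) was at 3.45, 3.92 and 3.71 CPM in control and at 0.903, 1.53 and 0.943 CPM in induced libraries. Its log2 fold change of -1.71 ± 0.24 (edgeR adjusted p = 5.86e-06) was the largest fall of these cofactors. Rad51c was at 5.07, 4.48 and 6.16 CPM in control and at 2.98, 2.79 and 3.25 CPM in induced libraries, a log2 fold change of -0.80 ± 0.18 (edgeR adjusted p = 0.000615). Xrcc2 fell from 9.45 ± 0.665 to 6.06 ± 1.12 CPM (log2 fold change -0.64). Rad51d, the most abundant of these cofactors per length in control cells, was at 30.2, 33.2 and 26.1 CPM in control and at 26.6, 24.1 and 25.3 CPM in induced libraries. Its groups overlapped, and its small fall (log2 fold change -0.24, edgeR adjusted p = 0.0212) was lost without control library 1, control library 2 or induced library 3 (adjusted p 0.0651, 0.153 and 0.0546). Xrcc3 (chr12:111803192-111813873, minus strand) was at 11.1, 9.68 and 10.8 CPM in control and at 15.5, 15.4 and 14.9 CPM in induced libraries. All induced libraries lay above all control libraries, with a log2 fold change of 0.54 ± 0.10 (edgeR adjusted p = 8.93e-05).

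The promoters of Rad51b, the largest fall of these cofactors, and of Xrcc3, a gene called higher, are shown under the rule given with the processing. Each run gives the 250 bases before the RefSeq start (GRCm38.p6), 5′ to 3′ on the gene's strand, at chr12:79297032-79297281 (plus) for Rad51b and at chr12:111813880-111814129 (minus) for Xrcc3. Capitals mark the letters CCAAT of the CCAAT box bound by NF-Y, which read ATTGG where the box lies on the other strand. Xrcc3 held 6 such matches, 237, 198, 161, 101, 96 and 27 bases before the start, those at 101 and 96 being next to each other, and Rad51b held 1 at 15 bases. Of 27025 genes with a promoter in the table, 18 (0.0666%) held at least 6. Such a share was counted for Xrcc3 alone, and Mus81, the other gene called higher, held no match. A link of these matches to the change in RNA was not tested.
Rad51b: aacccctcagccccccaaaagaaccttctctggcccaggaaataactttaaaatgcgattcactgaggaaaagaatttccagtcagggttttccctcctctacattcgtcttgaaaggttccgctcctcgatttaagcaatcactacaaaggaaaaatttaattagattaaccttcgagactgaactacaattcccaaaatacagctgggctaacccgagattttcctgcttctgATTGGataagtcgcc
Xrcc3: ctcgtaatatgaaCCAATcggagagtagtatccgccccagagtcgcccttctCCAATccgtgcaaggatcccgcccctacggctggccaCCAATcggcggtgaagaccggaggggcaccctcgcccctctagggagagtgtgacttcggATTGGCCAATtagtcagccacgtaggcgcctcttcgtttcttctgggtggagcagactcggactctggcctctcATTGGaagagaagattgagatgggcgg

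Both RAD54 motors, ATP-driven translocases that help the invasion of the intact copy, fell by more than 2-fold. Rad54l was at 9.17, 10.3 and 9.12 CPM in control and at 3.08, 3.00 and 3.09 CPM in induced libraries (log2 fold change -1.64 ± 0.14, edgeR adjusted p = 7.55e-09). Rad54b was at 3.75, 3.57 and 4.06 CPM in control and at 1.81, 0.894 and 1.10 CPM in induced libraries (log2 fold change -1.58 ± 0.25, edgeR adjusted p = 1.91e-05). The groups overlapped for neither gene. Of the exon bases of Rad54b, 35.9% lie in other genes, Fsbp on the same strand and Gm11832 on the opposite strand, and 15.4% of those of Rad54l lie in Lrrc41 on the opposite strand. How reads of overlapping genes were counted is not given in the sources used here. The paper does not say which of its library methods served these samples or whether strand was marked, so that such values are uncertain. An overlap of over 5% of the exon bases was found for 13 of the 42 genes, with 16.0% for Fanci, 10.7% for Eme1 and 10.5% for Fanca.

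All 8 genes of the Fanconi core complex fell, 4 of them by at least 2-fold, with a median log2 fold change of -0.93. Fanca, a scaffold subunit, was at 12.0, 12.2 and 11.6 CPM in control and at 4.57, 4.00 and 4.30 CPM in induced libraries (log2 fold change -1.48 ± 0.12, edgeR adjusted p = 4.74e-09). Fancb, a subunit of the catalytic module, was at 4.56, 3.16 and 4.66 CPM in control and at 1.54, 1.84 and 1.47 CPM in induced libraries (log2 fold change -1.35 ± 0.22, edgeR adjusted p = 3.35e-05). In both genes the groups were apart, although control library 2 of Fancb lay under the other controls. Fancl, the ubiquitin ligase subunit itself, fell from 6.28 ± 0.680 to 2.88 ± 0.456 CPM. Fancm, the translocase that anchors the complex to DNA, fell from 10.7 ± 1.21 to 4.92 ± 0.907 CPM, and both had a log2 fold change of -1.12. The other core genes fell by less than 2-fold. Fancf (log2 fold change -0.73) and Fancc (-0.71) lay in the middle, and Fance, the subunit that contacts FANCD2 (-0.47), and Fancg (-0.43) fell least. Fance was also the most abundant core gene per length, at 11.0 FPKM (fragments scaled to gene length and depth) in control and 8.05 FPKM in induced cells.

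FANCD2 and FANCI, the substrates of the core ligase, had the largest falls of the Fanconi genes. Fancd2 (chr6:113531682-113597017, plus strand) was at 14.6, 13.1 and 13.3 CPM in control and at 2.76, 4.10 and 3.98 CPM in induced libraries. The induced libraries held 26.5% of the control level (log2 fold change -1.92 ± 0.14, 95% interval -2.21 to -1.62, edgeR adjusted p = 9.39e-10). Fanci was at 7.96, 8.26 and 6.76 CPM in control and at 1.75, 2.31 and 2.41 CPM in induced libraries (log2 fold change -1.82 ± 0.17, edgeR adjusted p = 3.37e-08). Brip1, a helicase that binds BRCA1, fell from 7.65 ± 0.611 to 2.28 ± 0.828 CPM (log2 fold change -1.74), and its induced library 1, at 1.33 CPM, lay under the other 2 at 2.68 and 2.83 CPM. Usp1, the enzyme that removes ubiquitin from FANCD2, fell less, from 43.4 ± 3.66 to 26.4 ± 2.26 CPM (log2 fold change -0.71). Slx4, a scaffold for nucleases, fell from 35.2 ± 0.381 to 22.8 ± 2.16 CPM (log2 fold change -0.63). All 5 genes of this role were lower in induced cells, with a median log2 fold change of -1.74. The promoter of Brip1 is shown because its fall was the largest among genes of the RefSeq promoter table whose 250 bases before the start hold at most 30 bases of annotated UTR (chr11:86201194-86201443, minus strand). It held 3 matches to the CCAAT box, in capitals, at 99, 67 and 34 bases before the start.
Brip1: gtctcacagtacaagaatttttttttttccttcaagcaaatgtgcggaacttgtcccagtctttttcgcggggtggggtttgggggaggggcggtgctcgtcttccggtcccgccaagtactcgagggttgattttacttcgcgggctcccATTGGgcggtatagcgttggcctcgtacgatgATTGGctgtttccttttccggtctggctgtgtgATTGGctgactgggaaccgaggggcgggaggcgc

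**Figure D2:**
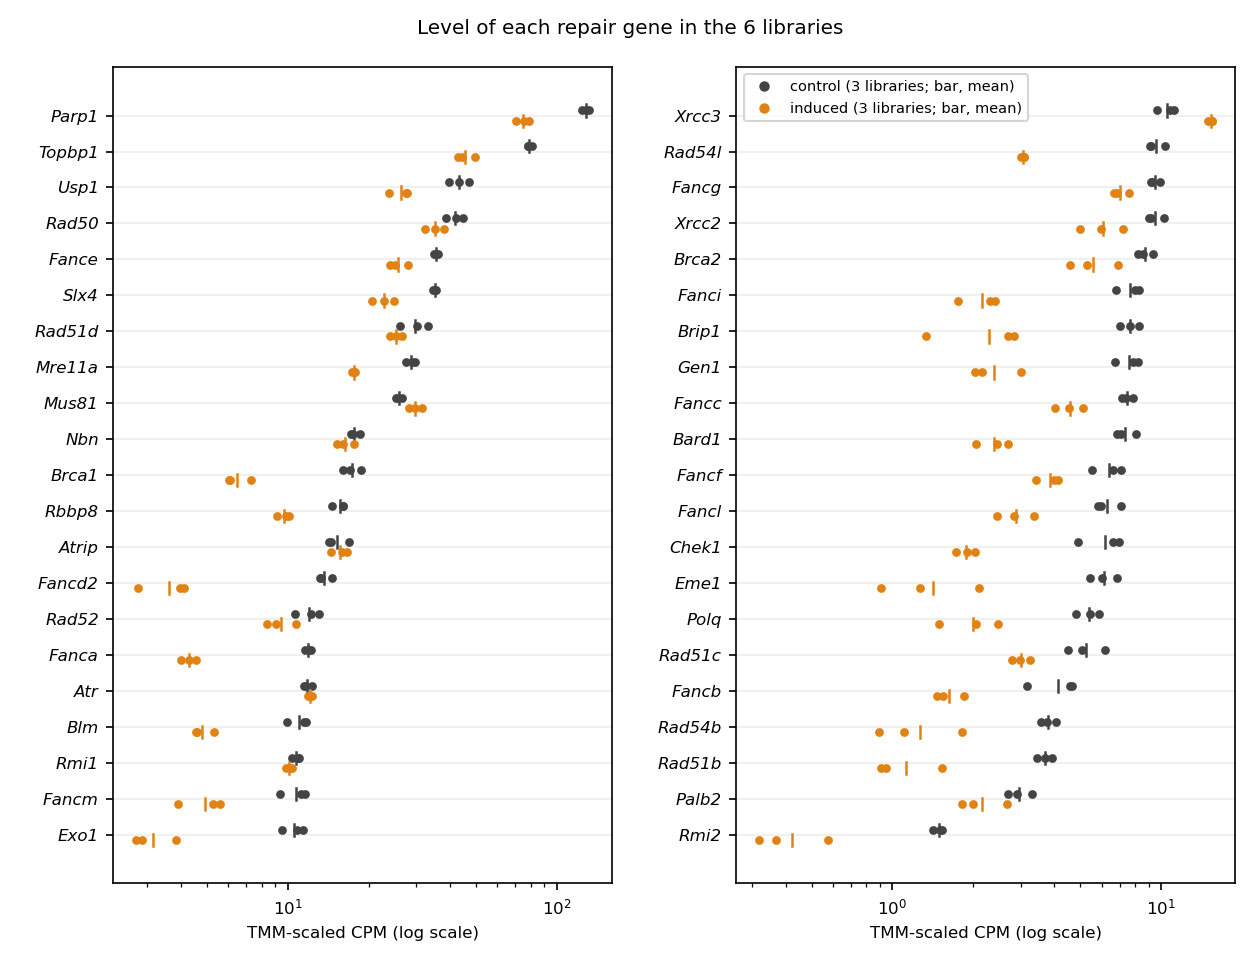
Each row is 1 of the 42 repair genes, and the x axis gives its level in TMM-scaled CPM on a log scale, with a point for each control and induced library and a short bar for the group mean. Induced libraries lie under control libraries for Brca1, Fancd2 and Eme1 and above them for Xrcc3 and Mus81.

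Among the genes of end resection, 4 of 5 fell and Nbn did not pass. Exo1, an exonuclease that extends the single strand, was at 9.48, 11.4 and 10.8 CPM in control and at 2.87, 3.84 and 2.73 CPM in induced libraries. Its log2 fold change was -1.75 ± 0.15 (edgeR adjusted p = 1.03e-08), while the other 4 genes of this role stood at -0.71 or nearer to 0. Mre11a, the nuclease of the MRE11-RAD50-NBN complex that starts resection, was at 29.0, 29.7 and 27.6 CPM in control and at 17.8, 17.3 and 17.7 CPM in induced libraries (log2 fold change -0.71 ± 0.07, edgeR adjusted p = 1.25e-07). Its partner Rad50, an ATPase, fell less, with a log2 fold change of -0.25 (edgeR adjusted p = 0.00509) on levels of 41.9 ± 3.08 and 35.2 ± 2.81 CPM. Nbn, the third subunit, was at 18.5, 17.1 and 17.4 CPM in control and at 17.6, 16.0 and 15.3 CPM in induced libraries. These overlapped, and the 95% interval of its log2 fold change ran from -0.30 to 0.07 (edgeR adjusted p = 0.254). Rbbp8, the gene of the resection cofactor CtIP, fell from 15.6 ± 0.865 to 9.70 ± 0.495 CPM (log2 fold change -0.68).

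The genes that process joined DNA molecules held both the largest fall and a rise. Eme1 (chr11:94644996-94653964, minus strand) was at 5.42, 6.01 and 6.86 CPM in control and at 0.903, 1.26 and 2.10 CPM in induced libraries. Induced cells held 23.4% of the control level, with a log2 fold change of -2.10 ± 0.23 (95% interval -2.58 to -1.61, edgeR adjusted p = 2.66e-07), and the coefficient of variation of 43.1% over the induced libraries was the highest of the 42 genes. EME1 forms a structure-specific nuclease with MUS81. Mus81 (chr19:5482345-5488402, minus strand) was at 25.3, 26.7 and 25.6 CPM in control and at 31.6, 28.2 and 29.7 CPM in induced libraries. It was slightly higher in induced cells (log2 fold change 0.21 ± 0.07, 95% interval 0.06 to 0.35, edgeR adjusted p = 0.0169). That call was lost without control library 1 or induced library 1 (adjusted p 0.0563 and 0.0717). Gen1, a nuclease that cuts Holliday junctions, fell from 7.60 ± 0.768 to 2.39 ± 0.532 CPM (log2 fold change -1.67). Blm, the helicase that with TOP3A, RMI1 and RMI2 dissolves double junctions, fell from 11.0 ± 0.941 to 4.81 ± 0.416 CPM (log2 fold change -1.20). Rmi2, the gene with the fewest reads of the 42, was at 1.42, 1.53 and 1.5 CPM in control and at 0.319, 0.368 and 0.577 CPM in induced libraries, which rest on 88 and 24 reads per group. Its log2 fold change was -1.80 ± 0.35 (edgeR adjusted p = 0.000178). Rmi1 was at 10.3, 11.0 and 11.0 CPM in control and at 10.2, 9.89 and 10.3 CPM in induced libraries, with a log2 fold change of -0.09 and a 95% interval of -0.31 to 0.13 (edgeR adjusted p = 0.459).

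Of the ATR checkpoint genes, Chek1 and Topbp1 fell, and Atr and Atrip did not pass. Atr, the kinase that answers single-stranded DNA, was at 11.5, 11.7 and 12.3 CPM in control and at 11.9, 12.3 and 12.1 CPM in induced libraries. Its log2 fold change was 0.03, with a 95% interval of -0.17 to 0.23 (edgeR adjusted p = 0.794), and turned below 0 when libraries were scaled by their totals. Atrip, the partner that brings ATR to DNA, had a log2 fold change of 0.04 with a 95% interval of -0.16 to 0.25 (edgeR adjusted p = 0.712). Trex1 shares 16.0% of the exon bases of Atrip on the same strand. Neither the interval of Atr nor that of Atrip held a change of 2-fold. Chek1, the kinase that ATR activates, was at 6.94, 6.62 and 4.91 CPM in control and at 2.02, 1.89 and 1.73 CPM in induced libraries, well apart (log2 fold change -1.71 ± 0.19, edgeR adjusted p = 3.24e-07). Topbp1, an activator of ATR, was at 78.1, 78.0 and 80.9 CPM in control and at 42.9, 49.8 and 44.6 CPM in induced libraries (log2 fold change -0.79 ± 0.06, edgeR adjusted p = 1.41e-09). By the same rule, the promoter of Chek1, the largest fall of this role, is shown (chr9:36726659-36726908, minus strand, inside the deposited gene model). That of Mus81, a gene called higher, is also shown (chr19:5488403-5488629, minus strand, without the last 23 bases, which are annotated as UTR). Neither held a match to CCAAT or to any other motif searched.
Chek1: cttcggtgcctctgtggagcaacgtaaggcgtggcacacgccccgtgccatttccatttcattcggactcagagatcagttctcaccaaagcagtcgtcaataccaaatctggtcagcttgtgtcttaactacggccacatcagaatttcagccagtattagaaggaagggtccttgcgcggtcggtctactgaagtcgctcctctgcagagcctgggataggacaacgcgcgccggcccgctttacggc
Mus81: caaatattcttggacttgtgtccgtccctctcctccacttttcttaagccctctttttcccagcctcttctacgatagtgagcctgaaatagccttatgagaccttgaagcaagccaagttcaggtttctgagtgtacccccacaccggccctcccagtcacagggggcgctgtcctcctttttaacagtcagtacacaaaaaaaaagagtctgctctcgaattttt

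Parp1, which senses strand breaks and marks proteins there with ADP-ribose, had the most reads of the 42 genes. It was at 128.8, 124.1 and 132.2 CPM in control and at 75.6, 78.9 and 70.7 CPM in induced libraries (log2 fold change -0.77 ± 0.06, edgeR adjusted p = 6.28e-10). Polq, the polymerase of theta-mediated end joining, was at 4.81, 5.45 and 5.86 CPM in control and at 1.49, 2.47 and 2.04 CPM in induced libraries (log2 fold change -1.42 ± 0.20, edgeR adjusted p = 4.88e-06). The groups were apart for both genes.

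Mus81 and Eme1, partners in a nuclease, moved in opposite directions. Ratios of FPKM within each library were compared for 11 partner pairs, which were chosen after the values were seen. Mus81 stood at 3.61, 3.44 and 2.89 times Eme1 per length in the control libraries and at 27.1, 17.3 and 11.0 times in the induced libraries. Rmi1 to Rmi2 went from 4.97 ± 0.0588 to 17.5 ± 4.83, and Atr to Chek1 from 0.387 ± 0.0906 to 1.26 ± 0.108. Rad51c to Xrcc3 went from 0.312 ± 0.0411 to 0.124 ± 0.0118. Mre11a to Rad50 went from 0.623 ± 0.0228 to 0.455 ± 0.0421, and Mre11a to Nbn from 0.695 ± 0.0392 to 0.462 ± 0.0316. For these 6 pairs the groups did not overlap, which gives p = 0.1 in the exact two-sided permutation test of the log2 ratios, the smallest p that 3 against 3 libraries allow, and 0.183 after adjustment over the 11 pairs. The share of other gene pairs without overlap was not counted, and as single genes 68.6% of all tested genes did not overlap. With pairs chosen on known values, the missing overlap adds nothing to the fold changes of the single genes. For Brca1 to Bard1, Palb2 to Brca2, Rad51d to Xrcc2, Fancd2 to Fanci and Atr to Atrip the groups overlapped (exact permutation p from 0.2 to 1.0). Fancd2 to Fanci, for example, was 1.31 ± 0.137 in control and 1.21 ± 0.0722 in induced cells.

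**Figure D3:**
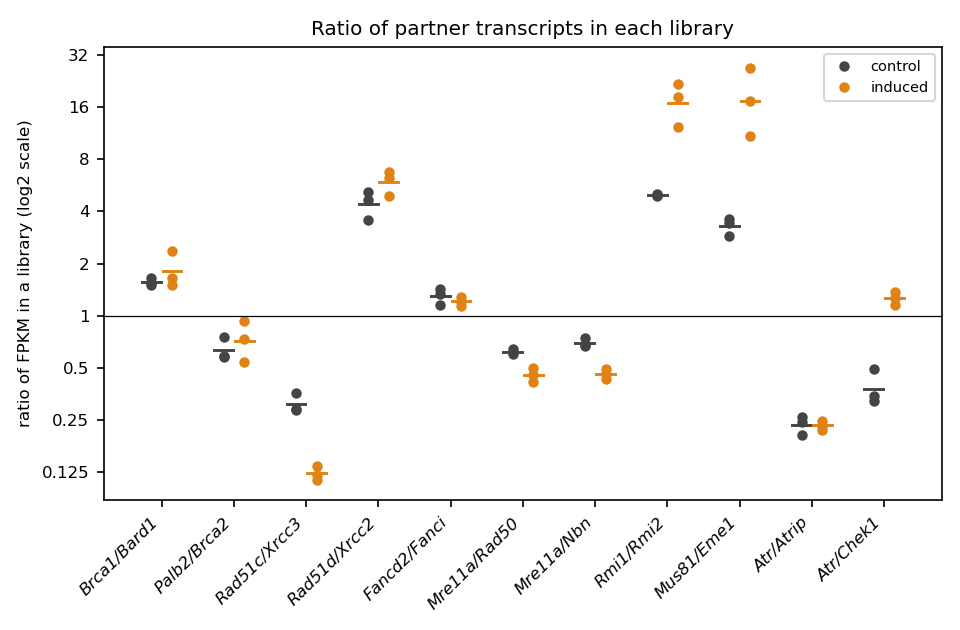
Each column is a partner pair, and the y axis gives the ratio of the 2 FPKM values in each library on a log scale, with points for control and induced iCDCs and bars for the mean of the log2 ratios. The ratio of Mus81 to Eme1 runs from 2.89 to 3.61 in control and from 11.0 to 27.1 in induced libraries.

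Per length, the repair genes were of low abundance, with a median of 1.67 FPKM in control and 0.616 FPKM in induced cells. A mean of at least 1 FPKM was reached by 33 genes in control and 18 in induced cells. Parp1 was the highest in both groups (24.0 and 14.2 FPKM) and Rmi2 the lowest (0.327 and 0.0936 FPKM). In the order of FPKM levels, Mus81 moved from place 6 to place 2, Xrcc3 from 12 to 8 and Atr from 40 to 26, while Eme1 moved from 15 to 25. Genes with less RNA in control cells tended to the larger falls, with a Spearman rho of 0.43 and a Pearson r of 0.44 between the log2 FPKM level in control cells and the log2 fold change over the 42 genes, which share the same libraries, and both measures rest on the same control values. The spread between libraries was a median coefficient of variation of 7.31% in control and 9.83% in induced cells. Induced library 1 was the lowest of the induced libraries for 20 genes, library 2 for 12 and library 3 for 10, and the median log2 ratio to the control mean was -0.88, -0.84 and -0.84 in these libraries.

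Other repair genes were compared through lists that leave out the 42. Of 46 further genes of recombination and the Fanconi pathway, 25 fell, none rose and 21 did not pass (median log2 fold change -0.24). The 54.3% called, all of them lower, stand against 64.8% of all tested genes in either direction and 32.2% as lower. DESeq2 also called none higher, and 1 gene had a higher level at an unadjusted p of 0.05. Without control library 2, 1 gene of this list was called higher, and without induced library 2, 2 were. The smallest p-values of the list were those of Mdc1, a break-site adaptor (log2 fold change -0.91), Spidr, a scaffold of recombination (-1.14), and Parpbp, which binds PARP1 (-2.11). Of 15 ATR and replication stress genes, 10 fell and 1 rose (median -0.43), led by Timeless (-1.57), Clspn (-1.55), both of the fork protection machinery, and the fork remodeler Zranb3 (-0.98). Of these 15 genes, 73.3% passed in either direction and 66.7% as lower, against 64.8% and 32.2% of all tested genes. Of 14 genes of nonhomologous end joining, which joins ends without a template, 6 fell and 3 rose (median -0.10). The 64.3% called in either direction are near the 64.8% of all tested genes, with 42.9% called lower against 32.2%. Its leading genes were the Ku subunits Xrcc6 (-0.998) and Xrcc5 (-0.48) and Trp53bp1, which limits resection (-0.35).

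Among genes of repair that does not use recombination, calls were found in both directions. Past the threshold were 55.0% of base excision, 57.9% of nucleotide excision, 71.4% of mismatch and 57.1% of translesion genes. These shares in either direction are near the 64.8% of all tested genes. Called lower were 9 of 20 base excision, 4 of 7 mismatch and 3 of 7 tested translesion genes. These shares lie above the 32.2% of all tested genes called lower, and that of nucleotide excision (5 of 19) lies below it. Of 20 base excision and single-strand break genes, 9 fell and 2 rose (median log2 fold change -0.20), led by the ligase Lig3 (-0.50), the glycosylase Neil3 (-1.18) and the endonuclease Apex1 (-0.53). Of 19 nucleotide excision genes, 5 fell and 6 rose (median 0.04), with the TFIIH subunit Gtf2h4 lower (-0.59) and the damage factor Xpa (0.53) higher. These 11 calls were 7, 6 and 7 without control library 1, control library 3 or induced library 1. Of 7 mismatch repair genes, 4 fell and 1 rose (median -0.27), among them Msh3 (-0.53) and Msh6 (-0.22), which take part in mismatch recognition. Of 7 tested translesion genes of 8 listed, 3 fell and 1 rose (median -0.11), with the polymerase Polh (-0.80) and the ubiquitin ligase Rad18 (-1.20) lower and the polymerase Polk (0.52) higher. The shares of the lists were not tested against each other.

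**Figure D4:**
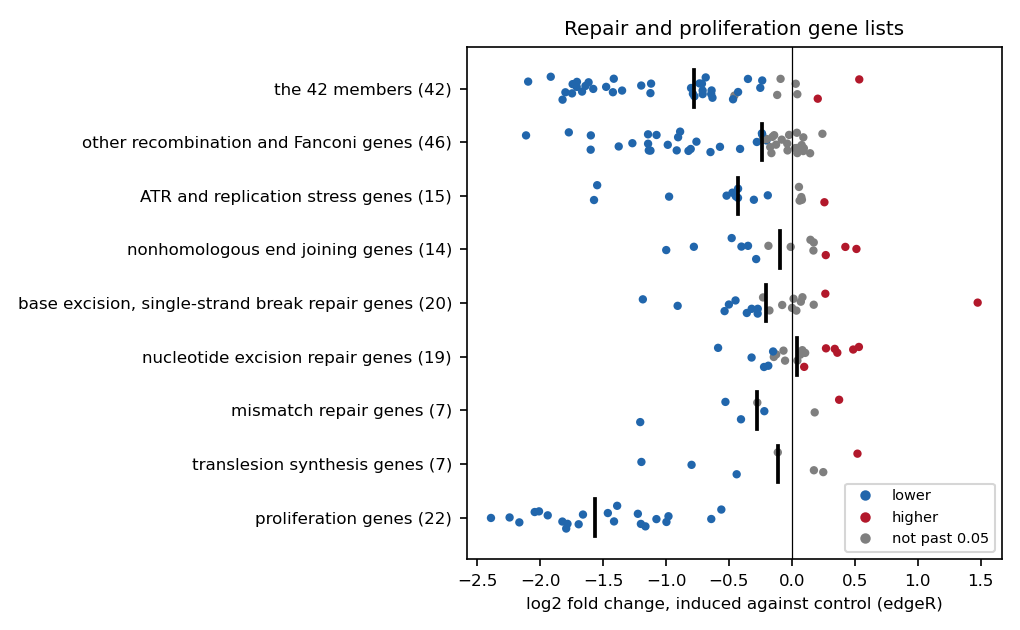
The figure plots the log2 fold change of each gene by edgeR, induced against control iCDCs, for the 42 repair genes, the other repair lists and the proliferation genes, with a black bar at the median of each list. The medians are -0.78 for the 42 genes, 0.04 for nucleotide excision repair and -1.56 for the proliferation genes.

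Promoter letters were counted over the 32 of 42 genes found by symbol in the RefSeq promoter table (GRCm38.p6), in the 250 bases before the start and on both strands. CCAAT was present in 16 of 32 (50.0%), against 34.5% of all 27025 promoters and 36.8% of those of tested genes. TTTGAA, the cell cycle homology region, was present in 2 (6.25%), Bard1 and Polq, against 16.3% of all and 10.2% of tested genes. An E2F motif, searched as TTNNCGC with each N as C or G, was present in 11 (34.4%), against 8.03% of all and 14.2% of tested genes. The limit on UTR bases for printed promoters was not applied to these counts. Among genes with an E2F match, the windows of Fancf, Bard1, Rmi1, Topbp1 and Rad51c hold 177, 174, 137, 118 and 106 bases of annotated UTR. Those of Brca2, Fancm and Rad52, also with a match, hold 0. Among the genes at least 2-fold lower, 4 of 15 held it (26.7%), and among the others 7 of 17 (41.2%). For CCAAT these numbers were 8 of 15 and 8 of 17. A CCAAT box on the other strand can overlap an E2F match that starts at its second letter, and a match is a stretch of letters, not a measured site.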

How the data were processed

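Libraries of 3 control and 3 induced iCDC samples were compared. The authors deposited raw read counts per gene and the matching FPKM values, made per the submitters' processing notes with HISAT2 2.0.5, featureCounts 1.5.0-p3 and DESeq2 1.16.1 on mm10. The deposited table also holds the authors' fold changes and p-values, and other tables hold Gene Ontology terms; neither was used. Of the 42 genes, 41 have the coordinates of GENCODE M21 (GRCm38). The counts entered edgeR 4.0.16 (R 4.3.3). Its filterByExpr (minimum count 10, total 15) retained 99.9% of reads, TMM set the scale, and the quasi-likelihood F test was two-sided with a prior count of 0.125 and Benjamini-Hochberg adjusted p-values read at 0.05. Levels are TMM-scaled CPM, mean ± SD over 3 libraries, and FPKM where genes are compared. The tests were checked on simulated counts in which few genes changed, equally up and down, with a single spread for all genes. That check does not cover data in which 64.8% of tested genes pass. No libraries were merged, since those of a group differed beyond sampling noise, with a chi-square of 2.56 to 8.91 per degree of freedom. Full values are given for the 2 genes with the largest change in each role and those called higher. From each comparison list, the 3 genes with the smallest p, and Mki67 and Pcna, were to be named by log2 fold change. The genes and lists were chosen with earlier results of these data known. The genes Fbh1 and Shld3 of the lists were not analysed here. Some genes that the naming rule takes from the lists are not reported here. Promoters are printed for the largest falls in 3 roles and both rises, among genes with an entry in the promoter table and at most 30 annotated UTR bases in the window. Every library was left out in turn, and other runs used a threshold of 0.01, DESeq2 1.42.0, other scalings and filters, a block for replicate number, or limma 3.58.1 on FPKM with 1 or 0.1 added before taking log2.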

Additional observations from a re-analysis of the deposited data

How the results depend on the processing

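Of the 42 genes, 37 passed an adjusted p of 0.05, and 35 to 37 did so under every alternative at that threshold, with 34 at 0.01; 34 of the 37 stayed past 0.05 in the same direction throughout. Libraries with the same replicate number showed no shared deviation from their group means (correlations -0.0266, -0.0271 and 0.0325), which cannot show whether the cultures were paired. The replicate block also called 37 of the 42 genes, and 9063 of all tested genes against 9225. The median log2 fold change of -0.78 became -0.82 with library totals alone, -0.50 with limma on log2(FPKM + 1) and -0.73 on log2(FPKM + 0.1), where the added constant shrinks low genes, and ran from -0.81 to -0.74 when each library was left out. Atr turned to -0.0062 with library totals (adjusted p 0.960). Rad52, Rad51d and Mus81 did not pass at 0.01, and Rad51d was lost under both limma fits (adjusted p 0.0675 and 0.0649); the cause was not tested. At 0.01, 5 of the 9 end joining calls and 7 of the 11 nucleotide excision calls were kept in number. Leaving out each library gave 6 to 10 and 6 to 12 calls in these lists. With library totals alone, 4285 of all tested genes were higher and 4933 lower, against 4643 and 4582. Depth limits the genes of few reads most: Rmi2 rests on 24 reads in induced libraries.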
